A study of Oryza sativa Indica Group with 226 samples.

Results

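Shoots of 110 recombinant inbred lines of rice, from a cross of the indica varieties Minghui 63 and Zhenshan 97, were divided by the signal of 1 probe set annotated to an EIL1 gene, giving 52 high and 58 low lines of 110. The line value was the mean of its 2 arrays. High lines lay at or above the mean of the 2 parental means, 6.30 on the log2 scale, and low lines lay under it. The groups were chosen by the values of that probe set, so these are described and not tested, and every test concerns other probe sets. The groups hold 104 and 116 of the 226 arrays, and the other 6 are 3 of each parent.

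All lines and both parents were untreated and were handled alike: seeds were soaked for 48 h at 25 °C, germinated at 35 °C and kept for 72 h at 25 °C, all in darkness at 85% relative humidity, and shoots were taken. Each line is inbred and carries a fixed mixture of both parental genomes. A single high line and a single low line can therefore differ at many loci besides any that set the dividing signal. The 2 arrays of a line are labelled biological replicates; how many seedlings went into each is not given in the sources used here. Values are deposited log2 signals of Affymetrix Rice Genome arrays. Array medians ran from 4.77 to 5.07 in the high group and from 4.77 to 5.05 in the low group. Among 6 shoot markers, the light-harvesting gene CAB2R had a mean signal of 12.56 in high and 12.72 in low lines, whereas the root silicon exporter Lsi2 was near 3.54 in both. Other root markers were not dim: the silicon channel Lsi1 stood at 8.41 and 8.51, and the nicotianamine synthase NAS1 at 7.90 ± 2.77 (SD, n = 52) in high and 7.36 ± 2.35 (SD, n = 58) in low lines. Their part in the results was not tested.

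Ethylene is a gaseous hormone that shapes the growth of seedlings in the dark and under water. It is made from S-adenosylmethionine by ACC synthase and ACC oxidase and is sensed by membrane receptors that repress signalling until the hormone binds. The signal then passes through EIN2 to transcription factors of the EIN3 and EIL family, which act on target genes that include ethylene response factors. In rice, loss of MHZ6, which is the EIL1 listed as EIL1A, makes roots insensitive to ethylene.

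The name EIL1 belongs to a pair of neighbouring genes on chromosome 3 in the reference table, EIL1B (LOC4332697) and EIL1A (LOC107276358, also called MHZ6), which are genes 1603 and 1604 of 4285 in order along it. The dividing probe set is annotated to EIL1B alone. It read 4.09, 4.32 and 4.28 in the 3 Minghui 63 arrays and 7.95, 8.06 and 9.09 in the 3 Zhenshan 97 arrays. The parents thus did not overlap, with means of 4.23 ± 0.12 and 8.37 ± 0.63 (SD, n = 3 each). For scale, the 17 Tag control probe sets, which have no rice target, had array means from 3.06 to 4.01, just under every Minghui 63 value.

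The line values fell into a low and a high cluster with almost nothing between them. Low lines had a lowest value of 3.80, a median of 4.28 and a highest of 6.295, with a mean of 4.31 ± 0.36 (SD, n = 58). High lines ran from 6.68 over a median of 7.74 to 9.26, with a mean of 7.71 ± 0.63 (SD, n = 52). One line, RIL139, sat at the threshold itself: its 6.295 was under it by less than 0.01, and the next low line, RIL066, stood at 4.82. Just inside the high group were RIL062 at 6.68 and RIL001 at 6.70. Within 1 log2 unit of the threshold lay 18 lines, 17 of them high.

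The 2 arrays of a line gave the same side of the threshold for most lines. Once the mean of each replicate number had been subtracted, 8 lines had arrays on opposite sides of the threshold, 7 high lines and RIL139. RIL195 was the widest apart, with 5.38 on its first array and 9.41 on its second. As deposited, both arrays of RIL001, RIL004, RIL030 and RIL062 lay above the threshold, so only the centring put them on opposite sides. Over all lines the replicate 1 arrays averaged 5.58 and the replicate 2 arrays 6.25. This shift lay mostly in the high lines, with deposited medians of 7.05 and 8.675, against 4.165 and 4.305 in the low lines. The centring applied the same shift to both groups.

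**Figure D1:**
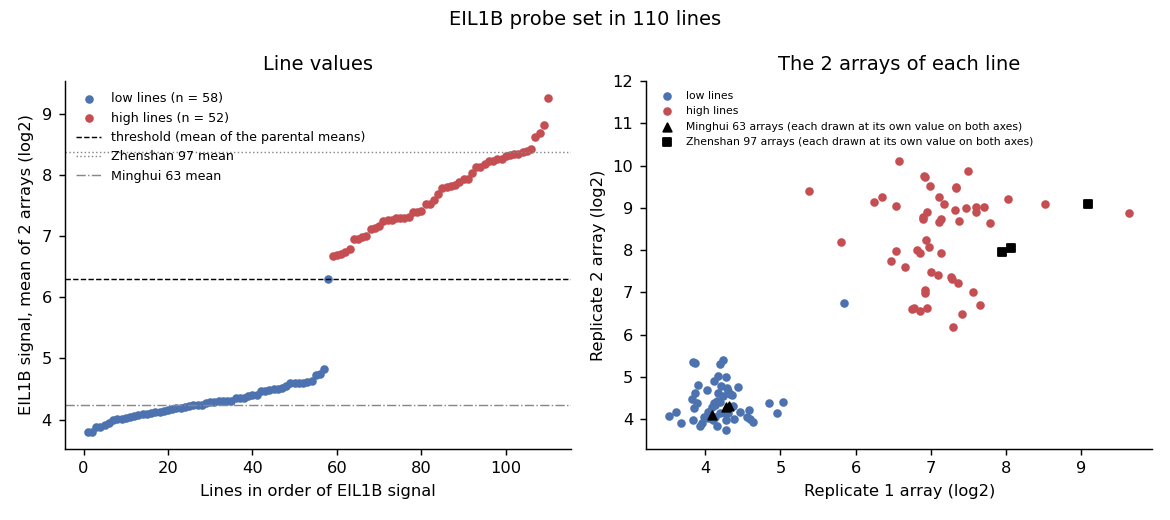
Left, EIL1B signal (log2, mean of 2 arrays) of 110 lines in rising order, coloured by group, with lines for the threshold and for the parental means. Right, replicate 1 against replicate 2 array of each line as deposited, with the 6 parent arrays at their own value on both axes; a low and a high cluster are seen, and RIL139 lies between them.

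The neighbouring EIL1A gene showed no such split. Its brighter probe set read 11.89, 11.89 and 11.72 in Minghui 63 and 11.56, 11.50 and 11.46 in Zhenshan 97, and the line values ran only from 11.20 to 11.88. High and low lines had means of 11.54 ± 0.11 and 11.51 ± 0.12, a difference of 0.03 (SE 0.02, limma adjusted p = 0.753). A dimmer EIL1A probe set stood at 5.82 in both groups (adjusted p = 0.971). Of 3 more probe sets that match EIL1A, EIL1B and a chromosome 9 gene together, 2 were bright enough to test and neither was called (adjusted p = 0.848 and 0.994). None of the 4 tested probe sets annotated to EIL1 was thus called (the dividing one was not tested). The groups are named here by the EIL1B probe set and not as lines with high or low EIL1. That name follows the annotation, and whether the dividing signal comes from EIL1B transcripts was not tested.

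Line means of 27730 other probe sets, those averaging at least 5 over all arrays, were compared between the groups with limma, and 97 (0.35%) were called at a Benjamini-Hochberg adjusted p under 0.05. Of these, 62 were higher (0.224%) and 35 lower (0.126%) in the high lines. Only 11 (0.0397%) differed by at least 1 log2 unit, and for none did the groups fail to overlap, since a few lines always stood with the other group. Counted by gene, 63 of 14675 annotated genes were called (0.429%), 39 higher (0.266%) and 24 lower (0.164%).

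The calls were concentrated at the far end of chromosome 1 and not around EIL1B on chromosome 3. Chromosome 1 held 51 called probe sets, of which 47 belonged to its last 250 genes in order, a segment delimited after the values had been seen. In that segment 47 of 169 tested probe sets were called (27.8%), 34 higher (20.1%) and 13 lower (7.69%), against 4 of 2450 (0.163%) on the rest of chromosome 1 and 19 of 14417 (0.132%) on all chromosomes other than 3 outside the segment. All chromosomes other than 3 together, the segment included, held 66 calls among 14586 probe sets (0.452%). In steps of 100 genes, calls numbered 0 of 45 for genes 4601 to 4700, 25 of 74 for genes 4701 to 4800, 18 of 68 for genes 4801 to 4900 and 4 of 12 for the last 20 genes. Chromosomes 9 to 12 had 0 calls, although between 54 and 67 probe sets on each had an unadjusted p under 0.05. A further 28 of 10740 (0.261%) had no single annotated gene and so no place.

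**Figure D2:**
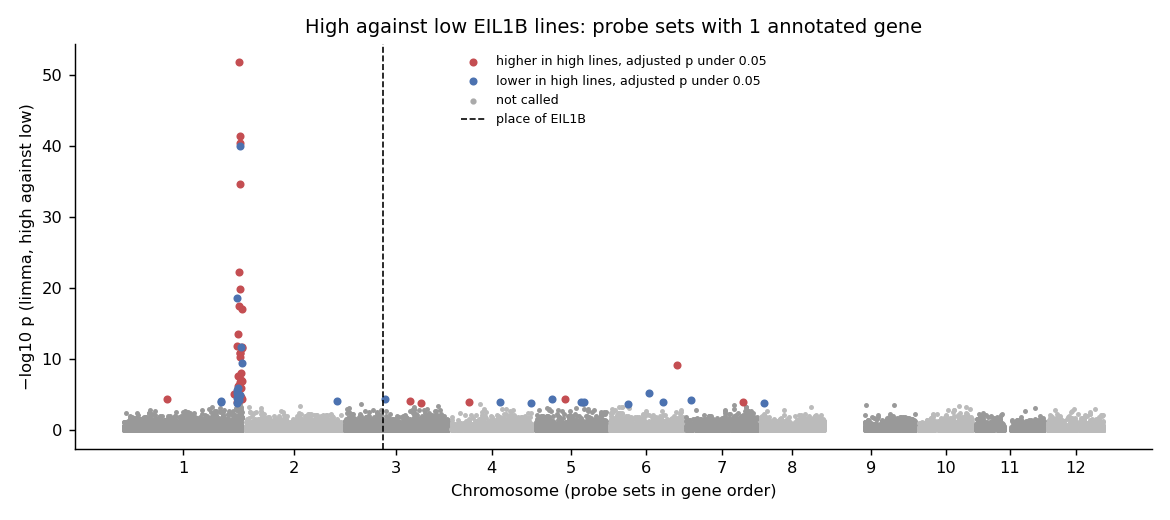
Each point is a probe set with 1 annotated gene, placed by gene order along chromosomes 1 to 12. The vertical axis is -log10 of the unadjusted limma p for high against low lines. Gaps between chromosomes include an added spacer, and gaps within a chromosome are runs of genes without tested probe sets. Called probe sets are coloured by direction; the peak at the end of chromosome 1 is far from the dashed line at the annotated place of EIL1B.

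Genes next to EIL1B on chromosome 3 showed no such pattern. Of 2404 tested probe sets on chromosome 3, 3 were called (0.125%). Within 50 genes of EIL1B on either side 0 of 62 were called by limma, 5 had an unadjusted p under 0.05, and the largest difference was 0.18 in either direction (smallest adjusted p = 0.552). Between 51 and 200 genes away 1 of 197 was called, LOC4332759, 81 genes from EIL1B, with a difference of -0.23 (adjusted p = 0.0175). The other 2 were over 1000 genes away, LOC4333547 with a difference of 0.33 and LOC4333934 with 0.22. In the replicate 2 arrays alone, 0 of the 2404 were called, with 270 at an unadjusted p under 0.05. In the replicate 1 arrays alone 5 were called, with 247. Groups from replicate 1 tested in replicate 2 arrays gave 4 calls, with 339. With the first 3 principal components as covariates 44 were called, with 297. How far from EIL1B the calls of these alternatives lay is not given here. Among the 10 nearest tested genes, 5 on each side, the only named one was CHLH, a subunit of the magnesium chelatase of chlorophyll synthesis, with a mean of 8.08 in high and 8.21 in low lines. Its difference of -0.13 (SE 0.11, adjusted p = 0.760) was of no clear sign, and the other 9 differed by -0.00 to 0.18.

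The strongest segment gene, LOC4325244, is number 4779 of 4920 on chromosome 1. It read 4.46, 3.95 and 5.02 in Minghui 63 and 8.91, 8.57 and 8.22 in Zhenshan 97. Line values in the high group had a lowest of 4.58, a median of 8.35 and a highest of 8.95, and in the low group 4.02, 4.69 and 8.59. The groups were apart except for 3 lines that stood with the opposite group. The difference was 3.48 (SE 0.12, limma adjusted p = 5.17e-48), with means of 8.29 ± 0.57 and 4.81 ± 0.72 (SD, n = 52 and 58).

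LOC4324008, gene 4834, followed the same course. Its parent arrays read 4.80, 4.79 and 5.14 in Minghui 63 and 8.26, 7.74 and 7.85 in Zhenshan 97. High lines ran from 4.60 over a median of 8.15 to 8.50, and low lines from 4.76 over 5.07 to 8.64, with 5 lines on the side of the other group. The difference was 2.74 (SE 0.13, adjusted p = 2.92e-37).

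LOC4324010, gene 4837, had 3 tested probe sets that disagreed. One was higher in high lines by 3.72 (SE 0.17, adjusted p = 4.24e-38), with a lowest, median and highest of 3.39, 7.53 and 7.88 in high and of 2.99, 3.42 and 8.22 in low lines. Another was lower in high lines by 5.40 (difference -5.40, SE 0.26, adjusted p = 5.25e-37), with 1.99, 2.53 and 9.25 in high and 2.21, 8.56 and 9.22 in low lines. Parental values ran in the same opposite ways, 3.35 and 7.28 for the former probe set and 8.54 and 2.64 for the latter in Minghui 63 and Zhenshan 97. The third was not called. A level for the gene as a whole therefore cannot be given from these probe sets, and their probes' match to either parent's sequence was not tested.

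The 11 probe sets that passed 1 log2 unit also included LOC4324011 (difference 2.02), LOC4324306 (1.76) and LOC4325750 (1.07, adjusted p = 0.00826), all in the segment, and 4 without a single annotated gene. All 11 differed in the same direction between high and low lines as between Zhenshan 97 and Minghui 63. LOC4325750 differed little between the parents, 4.28 in Minghui 63 and 4.65 in Zhenshan 97, while its line values reached 9.44 in the high and 8.76 in the low group, above both parents. Of all 97 called probe sets, 62 (63.9%) had the parental direction, against 42.7% of all tested. In the segment the count was 33 of 47 (70.2%), and among the 22 called probe sets placed elsewhere it was 11 (50%).

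**Figure D3:**
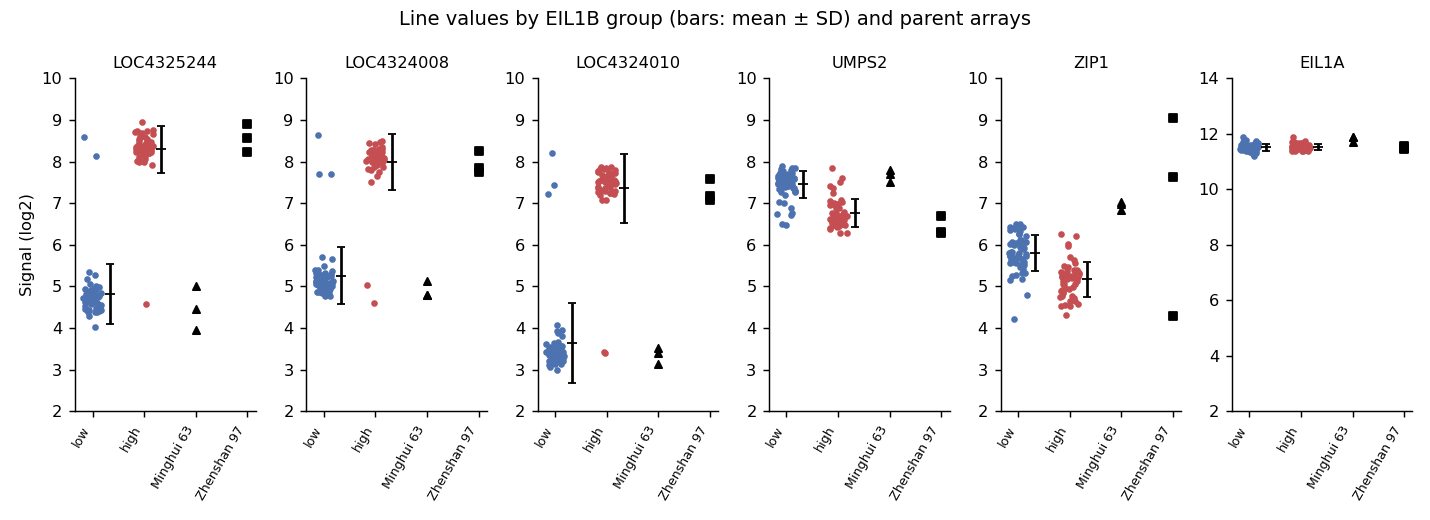
Signal (log2) of single lines in the low and high groups, with mean ± SD beside them, and of the 3 arrays of each parent, for 5 called genes of the chromosome 1 segment (1 probe set each) and for EIL1A, whose axis runs higher. LOC4325244, LOC4324008 and LOC4324010 show the high lines near Zhenshan 97 and the low lines near Minghui 63 apart from 3 to 5 lines, and EIL1A shows no separation.

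To see where in the genome the lines divided as they did by EIL1B, 176 probe sets whose parents differed by 2 or more and whose replicates correlated at 0.8 or more were each split at their own mid-parent value, a rule chosen after values had been seen. Loci that lie close together on a chromosome are mostly inherited together in such lines. The 10 such probe sets in the chromosome 1 segment disagreed with the EIL1B groups in 3 to 16 of 110 lines (median 5). The 166 elsewhere disagreed in 42 to 71 lines (median 55). On chromosome 3 the 14 probe sets disagreed in 42 to 54 lines (median 50), although the nearest of them was 536 genes from EIL1B.

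Along the segment the count fell and rose again in gene order. It was 9 lines at LOC4325412 (gene 4748), 3 at LOC4325244 (gene 4779), 5 at LOC4324008 (gene 4834) and at both probe sets of LOC4324010, 5, 5 and 14 at the 3 probe sets of LOC4324011 (gene 4838), 15 at LOC4324294 (gene 4887) and 16 at LOC4324306 (gene 4900). The smallest count was thus at gene 4779. Not all counted lines are independent. RIL191 and RIL192, both among the 9 at LOC4325412, are near-identical (r = 0.96 over tested probe sets whose parents differed by 2 or more). So are RIL111 and RIL204 (r = 0.96), which are both among the 15 at LOC4324294 and the 16 at LOC4324306. At LOC4325244 the lines that disagreed were RIL086, RIL139 and RIL150, and at LOC4324008 they were these 3 and RIL012 and RIL203. Neighbouring probe sets shared their lines to different degrees. Of the 9 at LOC4325412 only RIL086 and RIL139 recurred at LOC4325244, and of the 14 at one LOC4324011 probe set 5 were among the 15 at LOC4324294, whereas all 15 of these were among the 16 at LOC4324306.

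Some of these lines stood clearly on one side by EIL1B and on the other by chromosome 1. RIL086 had EIL1B at 3.89 and LOC4325244 at 8.14. RIL150 was the reverse, with 7.81 and 4.58. RIL139, the line at the threshold, had 8.59 for LOC4325244, among the high lines' values.

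**Figure D4:**
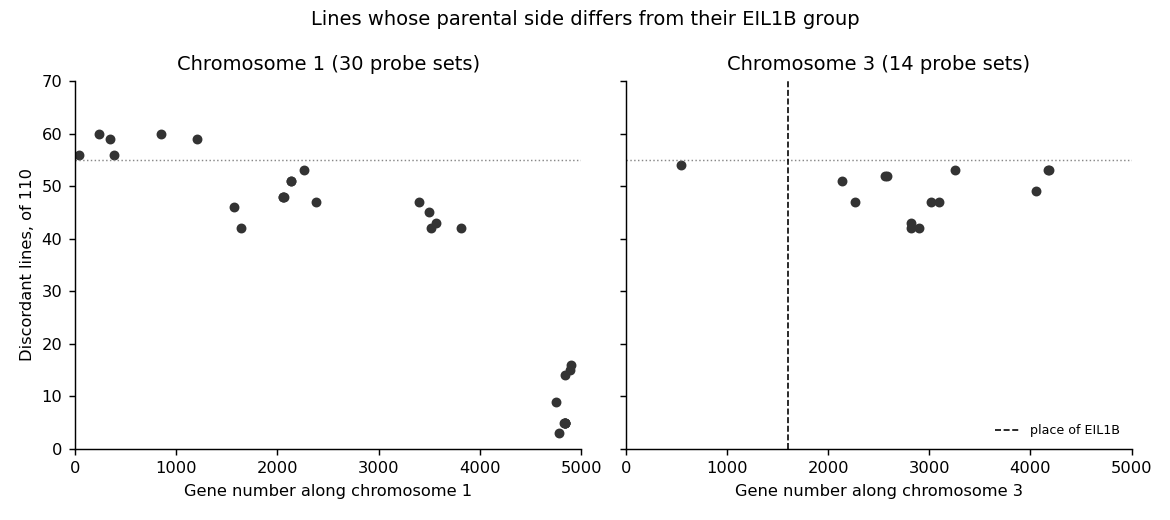
For each of 30 probe sets on chromosome 1 and 14 on chromosome 3, the number of 110 lines whose parental side differed from their EIL1B group, by gene number along the chromosome; the dotted line is at 55 lines and the dashed line at the annotated place of EIL1B. Counts are 3 to 16 at the end of chromosome 1 and 42 to 60 elsewhere on either chromosome.

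Of 2052 tested genes with a usable name 10 were called, and 7 of these lie in the chromosome 1 segment. UMPS2, a uridine monophosphate synthase of pyrimidine synthesis, read 7.51, 7.69 and 7.79 in Minghui 63 and 6.70, 6.29 and 6.31 in Zhenshan 97. High lines ran from 6.29 over a median of 6.68 to 7.85 and low lines from 6.47 over 7.56 to 7.91. They overlapped, but the bulk of the high lines lay lower. The difference was -0.69 (SE 0.06, limma adjusted p = 6.98e-16).

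ZIP1, on chromosome 1, belongs to the family of zinc and iron transporters. Its parents did not separate: Minghui 63 arrays read 6.98, 7.04 and 6.84, and Zhenshan 97 arrays spread over 4.28, 7.63 and 9.04. High lines ran from 4.31 over a median of 5.21 to 6.26 and low lines from 4.22 over 5.80 to 6.50, so all lines lay under the Minghui 63 arrays. The difference was -0.64 (SE 0.08, adjusted p = 2.36e-09).

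The other 5 named segment genes differed less. The calmodulin-like gene CML31 was higher in high lines by 0.42 (adjusted p = 0.0270) and COQ5, of ubiquinone synthesis, by 0.27 (adjusted p = 9.63e-05). MT2B, a metallothionein among the brightest genes called, had means of 12.78 and 12.55 and a difference of 0.23 (adjusted p = 0.000796), and all 3 of its tested probe sets were higher. PSD2 was higher by 0.17 (adjusted p = 0.0230) and GER8 lower, with a difference of -0.17 (adjusted p = 0.0123). Parental means in Minghui 63 and Zhenshan 97 ran opposite to the line groups for CML31 (6.21 and 4.70), PSD2 (7.96 and 7.36) and GER8 (5.28 and 5.54). They ran the same way for COQ5 (8.67 and 9.09) and MT2B (12.24 and 12.94). The 2 arrays of a line correlated at only 0.09 for CML31 and -0.10 for PSD2. CML31, COQ5 and MT2B were among the 6 named genes with the highest absolute correlation with EIL1B over 110 lines. The rest were UMPS2, ZIP1 and a chromosome 5 gene described next. That correlation uses the EIL1B values that formed the groups, so it is no separate support for the calls.

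Calls outside the segment were few and small. They were 22 of 16821 placed probe sets (0.131%), 8 higher (0.0476%) and 14 lower (0.0832%), with differences of 0.11 to 0.63 in size. The 3 named genes among them were all lower in high lines. A chromosome 5 gene listed as ZIP3, with the synonym ZIP7a, had means of 7.18 and 7.44 (difference -0.26, adjusted p = 0.0156), and ZIP5, also on chromosome 5, had 7.09 and 7.35 (difference -0.27, adjusted p = 0.0349). PSK4 on chromosome 7, a precursor of the peptide hormone phytosulfokine, had means of 7.33 and 7.63 (difference -0.31, adjusted p = 0.0186). With ZIP1, 3 of the 8 tested genes of the ZIP family were called lower and 0 higher, beside 24 lower of all 14675 annotated genes (0.164%). The median difference was -0.07 in the family and 0.01 over all annotated genes. The family was picked after its values were seen, so its count supports nothing.

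LOC4341977 on chromosome 6, outside the segment, had 3 tested probe sets, all higher in high lines, of which only 1 was called. That probe set was called under all 14 alternatives that tested it. The filter at a mean of at least 7 left it out. High lines ran from 4.93 over a median of 5.51 to 5.91 and low lines from 4.87 over 5.23 to 5.75. The groups overlapped over most of their range, with a difference of 0.28 (SE 0.04, adjusted p = 6.42e-07). Minghui 63 arrays read 4.99, 5.25 and 5.86 and Zhenshan 97 arrays 5.13, 5.05 and 4.74, with means of 5.37 and 4.97, the opposite order to that of the line groups.

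Calls were also made with groups and values from different arrays. When the replicate 1 arrays formed the groups and the replicate 2 arrays were tested, and the reverse, 30 of the 97 probe sets were called both times and 63 at least once. In the segment 20 of 47 were called both times, and among the 22 placed elsewhere 1 was, LOC4341977. UMPS2 (adjusted p = 3.47e-09 and 6.96e-14) and ZIP1 (1.11e-05 and 9.91e-06) kept their calls. Neither arrangement called ZIP5 (0.184 and 0.0561), MT2B (0.113 and 0.572), CML31 (0.449 and 0.177), GER8 (0.0712 and 0.200) or LOC4325750 (0.169 and 0.0647). PSK4 (0.00527 and 0.972) and PSD2 passed only in replicate 2 arrays, and COQ5 (0.113 and 0.00600) and the chromosome 5 ZIP3 (0.128 and 0.0324) only in replicate 1 arrays.

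None of the ethylene genes was called between the groups as divided. Synthesis had 6 tested members of 7 on the array, 0 called by limma and 4 with an unadjusted p under 0.05, with a median difference of -0.00. Over all annotated genes 0.429% were called, and 1333 of 14675 (9.08%) had an unadjusted p under 0.05. The nearest to a call was ACO1, an ACC oxidase on chromosome 9. Its line values ran from 4.29 over a median of 4.96 to 5.59 in high and from 4.58 over 5.17 to 6.24 in low lines, with a difference of -0.23 (SE 0.06, adjusted p = 0.0690). ACO1 was called lower in 2 of 14 alternatives, with the threshold at the median line value (limma adjusted p = 0.0160) and with the first 3 principal components as covariates (0.0212), and its adjusted p ranged up to 0.936 over the others. The S-adenosylmethionine synthetase SAM2 had a difference of -0.15 (adjusted p = 0.386), while SAM1, at about 12.8 in both groups, had -0.02. ARD4 and IDI2, which recycle methionine, had 0.13 and 0.09 (adjusted p = 0.523 and 0.522), and the ACC synthase ACS2 had 0.01. ACS1 averaged 4.69 in high and 4.71 in low lines and was too dim to be tested.

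Receptors and signalling members had small differences. Of 6 tested genes 0 were called, 0 had an unadjusted p under 0.05, and the smallest adjusted p was 0.684. The receptors ERS1, ERS2, ETR2 and ETR3 had differences of 0.02, -0.01, -0.04 and 0.00. EIN2, through which the receptors signal to the EIL factors, ran from 8.36 over 8.72 to 9.25 in high and from 8.37 over 8.61 to 9.38 in low lines. Its difference was 0.06, with a 95% interval of -0.02 to 0.13. MHZ4, an abscisic acid synthesis gene found through the ethylene response of rice roots, had -0.11, and the receptor ETR4 was too dim, at 4.79 and 4.83.

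Of the ethylene response factors, EREBP-1 (0.02) and RSR1 (0.07) were tested and not called, and ERF78 was too dim at 2.49 and 2.51. All 95% intervals for the 14 tested ethylene genes lay within 0.35 log2 units of 0. A p that missed the threshold does not show equal levels, but larger differences than that lie outside these intervals.

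**Figure D5:**
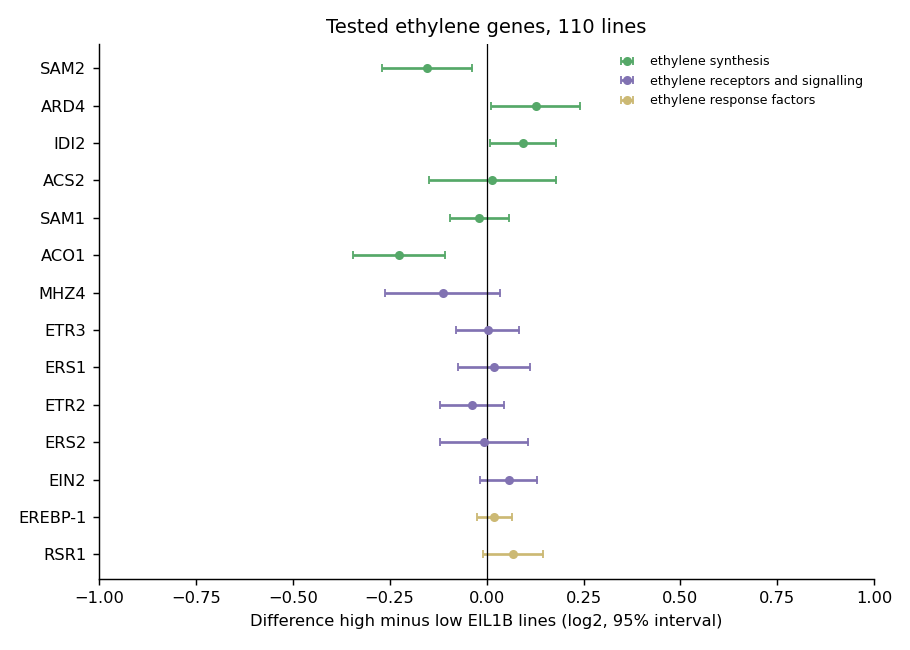
Difference of line means, high minus low EIL1B lines (log2, horizontal axis), with 95% intervals, for the 14 tested ethylene genes, coloured by role. Every point lies between -0.23 and 0.13, and none was called between the groups as divided.

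Other hormone and growth lists had no calls either. Auxin genes had 0 of 53 called and 9 with an unadjusted p under 0.05, jasmonate 0 of 23 and 3, gibberellin 0 of 9 and 3, and abscisic acid and carotenoid synthesis 0 of 8 and 0. Cell wall extension genes, which include expansins, had 0 of 43 called and 5 with an unadjusted p under 0.05, and genes of oxygen limitation 0 of 6 and 1. Median differences of these lists lay between -0.02 and 0.06. The jasmonate differences were small but mostly positive, 22 of 23, and the auxin ones 36 of 53, beside 8526 of 14675 (58.1%) over all annotated genes.

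A pair of lists stood a little off in their medians without a call. Light harvesting, photosynthesis and chlorophyll synthesis had 0 of 15 called and 7 with an unadjusted p under 0.05, with 13 of 15 differences negative and a median of -0.13. Among them GLK1, a transcription factor of chloroplast development, had means of 7.27 and 7.66 (difference -0.39, adjusted p = 0.267) and LHCP, a light-harvesting protein, 12.15 and 12.34 (-0.20, adjusted p = 0.420). Iron acquisition had 0 of 8 called and 3 with an unadjusted p under 0.05, with a median of 0.36. NAAT1, of phytosiderophore synthesis, had means of 9.39 ± 1.18 and 8.79 ± 1.25 (difference 0.60, SE 0.23, adjusted p = 0.391), and the iron transporter IRT2 7.01 and 6.44 (0.57, adjusted p = 0.539).

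The root markers, 4 of which are iron genes of that list, had 0 of 5 called and 1 with an unadjusted p under 0.05, with a median of 0.41. The 6 shoot markers, all of them also in the light-harvesting list, were not called either, with 3 at an unadjusted p under 0.05 and a median of -0.11. The 4 tested seed storage genes had a median of 0.02, 0 calls and 1 unadjusted p under 0.05. Fewer cells of a type and less RNA per cell cannot be told apart in whole shoots.

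Slopes of other probe sets on the height of the EIL1B signal within each group were also fitted; they use the values that formed the groups, so their counts are given as a description and nothing is read from them. With all values from the same line means, and so from the same arrays, limma called a slope for 10888 of 27730 probe sets among the high lines (39.3%). Among the low lines it called 4655 (16.8%). Between the 2 arrays of a line, the EIL1B signal correlated at only 0.04 among the high lines. Among the low lines it correlated at 0.34, and at -0.05 without the 2 lines farthest from the median of the replicate 1 arrays. With EIL1B from one replicate's arrays and the other probe sets from the other's, limma called 0 in the high lines in either arrangement, with 340 and 981 at an unadjusted p under 0.05, and 47 (0.169%) and 0 in the low lines, with 2011 and 1942.

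The difference between high and low lines was itself compared between replicate numbers, and 4 probe sets were called (0.0144%), among them LOC4324008, with a difference of 3.28 in replicate 1 and 2.19 in replicate 2 arrays.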

How the data were processed

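Total RNA of shoots from 110 lines (2 arrays each) and 2 parents (3 arrays each) was measured on 226 arrays. Per the submitters' processing notes the tools were RMA and affy, in versions and settings not stated in these sources. The authors deposited log2 signals, which ran from 1.16 to 14.35 and were taken unchanged. The number of arrays limits the precision.

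The 187 control probe sets and all probe sets annotated to EIL1 were left out, as were means under 5. Values were centred within replicate number, which cancels in a line mean, and line means were compared with limma 3.58.1 (lmFit, eBayes) in R 4.3.3 with the data.table package (1.17.8); all adjusted p-values are limma's with Benjamini-Hochberg adjustment over all probe sets tested (under 0.05 called). Whether replicates were separate cultures is not stated; the tests are over lines. The comparison was also run on simulated line values with known shifts. Their noise was independent between probe sets and lines, unlike that of real lines, so nothing about the counts of calls is read from that run.

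Platform annotation gave a single gene for 22436 probe sets and several for 95; names and gene order are from RefSeq's table for assembly ASM3414082v1, in which all 22436 matched, and no coordinates were used. A listed gene is represented by its probe set with the smallest p. List members were matched by symbol or synonym, and matches to another gene were removed for their identity. The named genes are called genes with a usable name (up to 12 in each direction), the EIL and ethylene genes, the 5 nearest genes on each side of EIL1B and the 6 most correlated; genes of the chromosome 1 segment and LOC4341977 were named after their values were seen. The groups, members and lists were chosen with earlier results of these data known. Replicate numbers name a line's 2 arrays and pair no lines. Alternatives covered the filter, array scaling, replicates, threshold, near-identical lines and principal components.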

Additional observations from a re-analysis of the deposited data

Results flagged for a closer look

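The difference between high and low EIL1B lines was compared between replicate numbers with limma on the difference between the 2 arrays of each line. The labels give replicate numbers and name no batch. Of 27730 probe sets 4 were called (0.0144%), with 4028 at an unadjusted p under 0.05. For LOC4324008 on chromosome 1 the difference was 3.28 in replicate 1 and 2.19 in replicate 2 arrays, a change of -1.09 (SE 0.09, adjusted p = 8.36e-17). A probe set of LOC4324010 had 3.96 and 3.48, a change of -0.48 (adjusted p = 3.38e-05). A pair of probe sets without a single annotated gene were also called. The lower of them in high lines had -2.72 and -1.82, a change of 0.90 (adjusted p = 6.10e-05), and the higher had 1.96 and 2.85, a change of 0.89 (adjusted p = 0.000102). In all 4 the direction was the same in both replicates.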

How the results depend on the processing

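The count of 97 called probe sets, with 66 on chromosomes other than 3, 3 on chromosome 3 and 47 in the chromosome 1 segment, moved most with principal components as covariates, and also with the filter and the arrays used; the segment's counts, the omission of RIL139 and the fit with the other EIL1 probe sets were added after seeing the data. With a mean of at least 7 the counts were 37, 28, 0 and 16, with 128 on chromosome 3 at an unadjusted p under 0.05. Leaving out either replicate gave 54 to 83 in all, 35 to 57 on other chromosomes, 0 to 5 on chromosome 3 (270 and 247 at an unadjusted p under 0.05) and 30 to 45 in the segment; the lower counts were without replicate 1. Groups from replicate 1 tested in replicate 2 arrays gave 52, 34 and 28 in all, on other chromosomes and in the segment, and the reverse gave 60 in all and 0 on chromosome 3 (115 at an unadjusted p under 0.05). With the first 3 principal components as covariates 408 were called (133 higher, 275 lower), 279 on other chromosomes and 44 on chromosome 3, and 94 of the 97 were among them; the cause was not tested. A threshold at the median left 1 on chromosome 3. Other totals, over both directions, in all, on other chromosomes, on chromosome 3 and in the segment stayed within 1.5 times. The 11 that differed by at least 1 log2 unit became 17 without a filter, 0 under the filter at 7, and 10 or 11 otherwise. Without the lines within 1 of the threshold, lower calls fell from 35 to 23 and from 13 to 7 in the segment. Without the replicate block, the count of calls was 97 as before, since the centring cancels in a line mean. Called slopes within groups, again given only as a description, numbered 6987 in high lines with a mean of at least 7. Across replicates they numbered 0 and 0 in high and 47 and 0 in low lines. Calls that differed between replicates numbered 0 with a mean of at least 7 (2393 at an unadjusted p under 0.05) and 8 with no filter. Leaving out a replicate changed the values tested and not the groups, which stayed at 52 high and 58 low lines. By the centred arrays of a single replicate, 48 to 50 lines lay at or above the threshold, and the tests across replicates used those groups. No called difference of a named gene changed sign; single calls lost numbered 46 without replicate 1, 43 without replicate 2, 53 and 48 across replicates, 33 without the lines within 1 of the threshold, and 0 to 23 under each of the others. Groups from the next EIL1-only probe set were not formed, since its parents differed by only 0.33. Leaving out 1 line of each of 6 near-identical pairs, RIL139, or scaling each array by its median moved no such total by over 1.5 times. ACO1 gained a call under 2 alternatives. The signal of low probe sets limits the rest: 3 ethylene genes fell under the filter.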
